A study of Mus musculus with 12 samples.

Results

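The 10 genes described here build melanosomes or move them through the cell. They (Mlph, Myo5a, Rab27a, Rab32, Rab38, Hps1, Hps4, Ap3d1, Lyst and Mcoln3) were read out by RNA sequencing in melanocytes and 5 other cell populations of mouse back skin. They were chosen by gene symbol, and all 10 of them were found among the 19150 genes of the table. The cells were sorted by flow cytometry from dorsal skin of CD1 mice, an outbred albino stock, at postnatal day 5, when the hair follicles are growing. The populations were melanocytes, matrix, outer root sheath, dermal sheath, dermal papilla and dermal fibroblasts, with 2 libraries each and 12 in all. By its title the series is about how the dermal sheath contracts, not about pigment. All groups shared strain, age and tissue, and the labels name no genotype or treatment. The library protocol describes sets of 6 barcodes for 3 populations with 2 replicates each, without saying which populations shared a set, so a difference between sets and one between populations cannot be told apart. Sort gates are not given in the sources used here, so whether any of these genes or a reporter marked the sorted cells is not known.

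Melanosomes are organelles related to lysosomes in which melanocytes make and store melanin. Cargo reaches the young organelle through the adaptor complex AP-3 and the biogenesis of lysosome-related organelles complexes (BLOC), together with the small GTPases Rab32 and Rab38. The mature melanosome is then carried out along actin by Rab27a, its effector melanophilin and the motor myosin Va, and in the hair follicle it is passed to keratinocytes of the matrix. In mice, loss of such genes dilutes the coat, as in the strains dilute (Myo5a), ashen (Rab27a), leaden (Mlph), chocolate (Rab38), pale ear (Hps1), light ear (Hps4), mocha (Ap3d1) and beige (Lyst).

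Levels are FPKM, read coverage scaled by the authors to transcript length and library size, so they can be set side by side between genes. Differences are log2 of (FPKM + 1), first population minus second, ± SE, and each fold is taken on that scale, which understates the change of weakly expressed genes. A gene was called at an adjusted p under 0.05 and an absolute log2 difference of at least 1, in a limma fit over 13974 genes. Whether paired libraries stem from different mice is not labelled, and the spread behind the p-values may thus be technical. Library totals lay between 373066 and 524040 FPKM, the number of reads behind them is unknown, and the median SD between the 2 libraries was 0.21 to 0.26 on the log2 scale. All 10 genes passed the filter of 1 FPKM in at least 2 libraries, Mcoln3 through melanocyte and fibroblast libraries alone.

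Each of 11 melanocyte markers was highest in the melanocyte libraries. These markers, the melanin synthesis genes Tyr, Tyrp1 and Dct among them, summed to between 14487 and 17239 FPKM in melanocytes and to between 25.6 and 110 FPKM in matrix, outer root sheath, dermal sheath and dermal papilla. Fibroblast libraries stood apart, with a sum of 7472 and 7936 FPKM, although 4 of 5 fibroblast markers were highest in them. In a bulk library, fewer cells of a type and less RNA per cell cannot be told apart. Results on fibroblasts are therefore given separately, and the other comparisons were also fitted without those 2 libraries.

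The 10 genes together reached 1032 and 1158 FPKM in melanocytes, against 74.8 to 87.8 FPKM in matrix, 66.8 to 67.5 FPKM in outer root sheath, 73.6 to 75.5 FPKM in dermal sheath, 52.0 to 56.4 FPKM in dermal papilla and 363 to 366 FPKM in dermal fibroblasts. Every one of the 10 had its highest mean in melanocytes. Both melanocyte libraries lay above all 8 libraries of the 4 non-fibroblast populations for 10 of 10 genes, as they did for 11.2% of all tested genes, and above all 10 other libraries for 7 of 10, against 9.42% of tested genes. Called higher in melanocytes than in each of the 4 non-fibroblast populations were 8 of 10 (all but Hps1 and Ap3d1), against 4.68% of tested genes. Called higher than in all 5 were 7 of 10, these 8 without Hps4, against 2.76%.

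**Figure D1:**
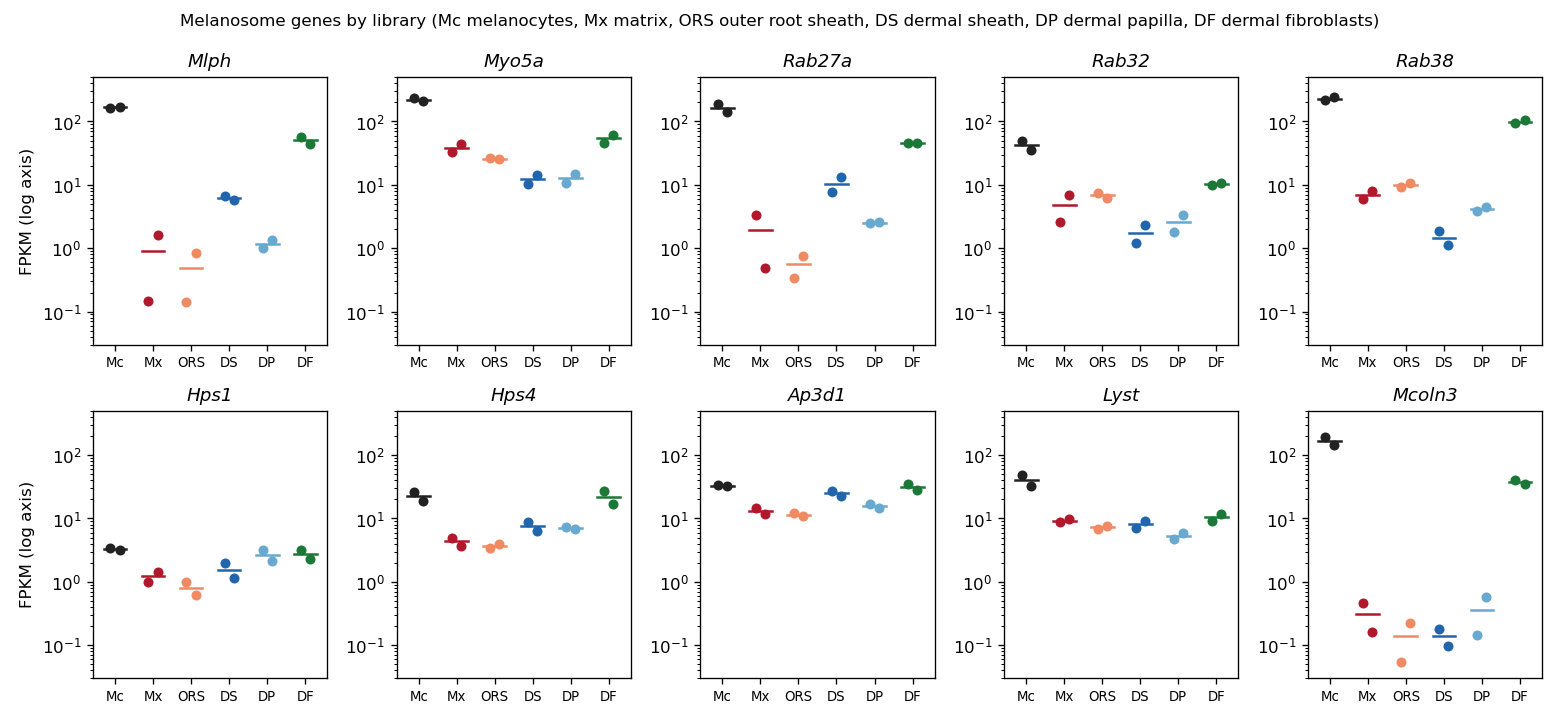
FPKM on a log axis of each of the 10 genes in each of the 12 libraries; points are libraries and bars are the means of the 2 libraries of a population (melanocytes left, dermal fibroblasts right). Mcoln3 lies under 1 FPKM in 8 libraries and at 35.3 or more in 4, whereas Ap3d1 lies between 10.9 and 34.4 FPKM in all 12.

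The 3 genes of the actin-based carrier, Mlph, Rab27a and Myo5a, were abundant in melanocytes and differed in how much of them other cells held. Mlph (chromosome 1, 90915085 to 90951142, plus strand, mm10) encodes melanophilin, the linker between Rab27a and the motor. It stood at 164 and 172 FPKM in melanocytes, against 0.148 and 1.63 FPKM in matrix, 0.141 and 0.834 FPKM in outer root sheath, 6.56 and 5.67 FPKM in dermal sheath, 1.01 and 1.36 FPKM in dermal papilla, and 57.0 and 43.7 FPKM in dermal fibroblasts. Melanocytes were thus far above every other library, fibroblasts came next, dermal sheath followed, and the matrix libraries, under 2 FPKM, spanned those of dermal papilla and overlapped those of outer root sheath, with papilla above outer root sheath in both libraries. Its level was 97.2-fold higher in melanocytes than in matrix (log2 6.60 ± 0.39, limma adjusted p = 4.78e-07) and 23.8-fold higher than in dermal sheath (log2 4.57 ± 0.39, adjusted p = 3.28e-06). Because the matrix libraries differ, the first value was log2 6.00 without matrix replicate 1 and 7.20 without matrix replicate 2.

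Rab27a (chromosome 9, 73044854 to 73097629, plus strand) encodes the GTPase that marks the mature melanosome. Its values were 190 and 141 FPKM in melanocytes, against 3.39 and 0.487 FPKM in matrix, 0.344 and 0.767 FPKM in outer root sheath, 7.82 and 13.1 FPKM in dermal sheath, 2.47 and 2.61 FPKM in dermal papilla, and 45.0 and 46.2 FPKM in dermal fibroblasts. The order of populations was that of Mlph, with matrix again spanning dermal papilla and overlapping outer root sheath, and papilla above outer root sheath in both libraries. The gene was 64.4-fold higher in melanocytes than in matrix (log2 6.01 ± 0.44, adjusted p = 2.09e-06) and 14.7-fold higher than in dermal sheath (log2 3.88 ± 0.44, adjusted p = 3.62e-05). The difference from matrix was log2 6.79 without matrix replicate 1 and 5.23 without matrix replicate 2. An exon of the annotated pseudogene Gm27186 overlaps it, so some reads may be shared.

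Myo5a (chromosome 9, 75071015 to 75223688, plus strand) encodes the heavy chain of myosin Va, an actin motor that many cell types use. It was at 236 and 207 FPKM in melanocytes, against 32.8 and 44.0 FPKM in matrix, 26.2 and 25.6 FPKM in outer root sheath, 10.4 and 14.3 FPKM in dermal sheath, 10.9 and 14.8 FPKM in dermal papilla, and 46.5 and 61.6 FPKM in dermal fibroblasts. Unlike its partners it was well expressed in the epithelium, with matrix above outer root sheath in every library and both above the dermal sheath and papilla, which overlapped. Myo5a was 5.69-fold higher in melanocytes than in matrix (log2 2.51 ± 0.26, adjusted p = 2.31e-05), 8.25-fold higher than in outer root sheath and 16.8-fold higher than in dermal sheath (log2 4.07 ± 0.26, adjusted p = 3.54e-07).

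Promoter windows of RefSeq (build GRCm38.p6, 250 bases before to 50 after each start) were available for 9 of the 10 genes, in 11 windows. They were searched on both strands for CACGTG, its own reverse complement, and for CATGTG (reverse complement CACATG), the letters at the core of sites known for MITF, the transcription factor of the melanocyte lineage. CACGTG was found in windows of Mlph, Rab27a and Hps1, 3 of 11 windows, against 7.15% of 32851 windows of all genes. CATGTG was found in 1 of 11, that of Hps1, where the match with a T before it (TCATGTG) also occurred, against 14.2% and 3.77% of all windows. The stretches before RefSeq starts of Mlph and Rab27a are shown because these are the carrier genes that were called in all comparisons with other populations and hold a match. Capitals mark CACGTG, which begins 48 bases before the RefSeq start of Mlph and 246 bases before the second RefSeq start of Rab27a. These starts differ from the GENCODE gene starts given above. The Rab27a stretch lies within the GENCODE span of the gene, and the Mlph stretch ends past the GENCODE start at 90915085.
Mlph, chr1:90914952-90915099, plus strand: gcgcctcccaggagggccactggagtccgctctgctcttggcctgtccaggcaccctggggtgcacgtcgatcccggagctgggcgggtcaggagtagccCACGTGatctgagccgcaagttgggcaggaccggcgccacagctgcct
Rab27a, chr9:73063898-73064007, plus strand: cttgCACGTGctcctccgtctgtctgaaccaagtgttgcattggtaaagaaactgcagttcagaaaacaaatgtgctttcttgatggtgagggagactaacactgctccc
A match is a run of letters and was not tested as a binding site, and a window without a match says nothing about a factor.

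Rab32 and Rab38, the related GTPases that send enzymes such as tyrosinase to the melanosome, differed in level although both peaked in melanocytes. Rab38 (chromosome 7, 88430273 to 88491572, plus strand) was at 215 and 243 FPKM in melanocytes, against 5.99 and 8.06 FPKM in matrix, 9.33 and 10.7 FPKM in outer root sheath, 1.84 and 1.11 FPKM in dermal sheath, 3.89 and 4.52 FPKM in dermal papilla, and 93.2 and 106 FPKM in dermal fibroblasts. All 6 populations separated from their neighbours in that order of levels, with outer root sheath above matrix and dermal papilla above dermal sheath. Rab38 was 93.9-fold higher in melanocytes than in dermal sheath (log2 6.55 ± 0.25, adjusted p = 1.30e-08), 44.2-fold higher than in dermal papilla, 28.9-fold higher than in matrix and 20.9-fold higher than in outer root sheath.

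Rab32 (chromosome 10, 10545002 to 10558265, minus strand) had a lower mean FPKM than Rab38 in every population but dermal sheath. Its values were 49.4 and 36.0 FPKM in melanocytes, against 2.56 and 7.03 FPKM in matrix, 7.40 and 6.23 FPKM in outer root sheath, 1.20 and 2.31 FPKM in dermal sheath, 1.83 and 3.40 FPKM in dermal papilla, and 10.04 and 10.9 FPKM in dermal fibroblasts. Melanocytes and then fibroblasts were clear of the rest, and the remaining populations overlapped with their neighbours. Rab32 was 16.0-fold higher in melanocytes than in dermal sheath (log2 3.9997 ± 0.40, adjusted p = 1.31e-05) and 5.55-fold higher than in outer root sheath (log2 2.47 ± 0.40, adjusted p = 0.000646).

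Hps1 and Hps4, the subunits of BLOC-3, which activates Rab32 and Rab38, both had their highest means in melanocytes and fibroblasts and differed in how far these stood above the rest. Hps4 (chromosome 5, 112343083 to 112378414, plus strand) was at 26.1 and 19.2 FPKM in melanocytes, against 5.00 and 3.66 FPKM in matrix, 3.47 and 3.93 FPKM in outer root sheath, 8.92 and 6.24 FPKM in dermal sheath, 7.29 and 6.75 FPKM in dermal papilla, and 27.1 and 16.8 FPKM in dermal fibroblasts. Melanocytes and fibroblasts overlapped at the top, and the mesenchyme of the follicle lay above its epithelium in each library. The gene was 4.43-fold higher in melanocytes than in matrix (log2 2.15 ± 0.31, adjusted p = 0.000247) and 2.76-fold higher than in dermal sheath (log2 1.47 ± 0.31, adjusted p = 0.00268).

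Hps1 (chromosome 19, 42755105 to 42779978, minus strand) had the lowest FPKM of the 10 in melanocytes and fibroblasts. It was at 3.47 and 3.17 FPKM in melanocytes, against 1.01 and 1.44 FPKM in matrix, 0.995 and 0.613 FPKM in outer root sheath, 1.96 and 1.15 FPKM in dermal sheath, 3.14 and 2.17 FPKM in dermal papilla, and 3.19 and 2.26 FPKM in dermal fibroblasts. Its melanocyte libraries were only just above the highest papilla library and overlapped with fibroblasts. Hps1 was called higher in melanocytes in the comparison with outer root sheath (2.41-fold, log2 1.27 ± 0.28, adjusted p = 0.00523), and that call was lost with a pseudocount of 5 (log2 0.52). Against matrix it missed the fold threshold (log2 0.96 ± 0.28, adjusted p = 0.0217) and was called without matrix replicate 2 (log2 1.11, adjusted p = 0.0446) or with a pseudocount of 0.1 (log2 1.39, adjusted p = 0.0418). Against dermal sheath it also missed that threshold (log2 0.77, adjusted p = 0.0479), and it was called there with quantile normalization (log2 1.07, adjusted p = 0.0157). Exons of genes on the opposite strand overlap both, Gm16244 for Hps1 and Gm20636 for Hps4, and the use of strand in counting is not given in the sources used here.

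Ap3d1 (chromosome 10, 80706956 to 80742264, minus strand), the delta subunit of the cargo adaptor AP-3, was expressed at over 10 FPKM in every library. It was at 34.1 and 32.1 FPKM in melanocytes, against 14.7 and 11.6 FPKM in matrix, 12.1 and 10.9 FPKM in outer root sheath, 27.6 and 22.4 FPKM in dermal sheath, 16.7 and 14.5 FPKM in dermal papilla, and 34.4 and 27.6 FPKM in dermal fibroblasts. Melanocytes overlapped with fibroblasts, dermal sheath came next, and papilla, matrix and outer root sheath followed with overlaps. Ap3d1 was 2.42-fold higher in melanocytes than in matrix (log2 1.28 ± 0.23, adjusted p = 0.00133) and 2.73-fold higher than in outer root sheath. The difference from dermal sheath did not pass the test (log2 0.40, 95% interval -0.11 to 0.91, adjusted p = 0.195). Against dermal papilla it was called at 2.05-fold (log2 1.04 ± 0.23, adjusted p = 0.00439), at the edge of the fold threshold. That call was lost without dermal papilla replicate 2 (log2 0.94), without melanocytes replicate 1 (log2 0.997) and with a pseudocount of 5 (log2 0.89).

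Lyst (chromosome 13, 13590397 to 13778803, plus strand) encodes the large BEACH domain protein that controls the size of lysosomes and related organelles. Its values were 48.3 and 32.5 FPKM in melanocytes, against 8.70 and 9.78 FPKM in matrix, 6.80 and 7.74 FPKM in outer root sheath, 7.15 and 9.10 FPKM in dermal sheath, 4.68 and 5.79 FPKM in dermal papilla, and 9.11 and 11.7 FPKM in dermal fibroblasts. Below melanocytes the levels were close, with fibroblasts, matrix, dermal sheath and outer root sheath overlapping in turn and papilla lowest. Lyst was 3.98-fold higher in melanocytes than in matrix (log2 1.99 ± 0.27, adjusted p = 0.000193) and 6.55-fold higher than in dermal papilla (log2 2.71 ± 0.27, adjusted p = 1.63e-05).

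Mcoln3 (chromosome 3, 146117450 to 146141806, plus strand) encodes mucolipin 3, a cation channel of endosomes and lysosomes whose gain-of-function alleles cause the varitint-waddler coat in mice. It was at 192 and 147 FPKM in melanocytes, against 0.455 and 0.163 FPKM in matrix, 0.0550 and 0.223 FPKM in outer root sheath, 0.182 and 0.0978 FPKM in dermal sheath, 0.146 and 0.568 FPKM in dermal papilla, and 40.4 and 35.3 FPKM in dermal fibroblasts. Outside melanocytes and fibroblasts all 8 libraries were under 1 FPKM and the populations overlapped. On the log2(FPKM + 1) scale, the gene was 130-fold higher than in matrix (log2 7.02 ± 0.28, adjusted p = 7.25e-08), the widest difference of the 10 genes in that comparison.

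**Figure D2:**
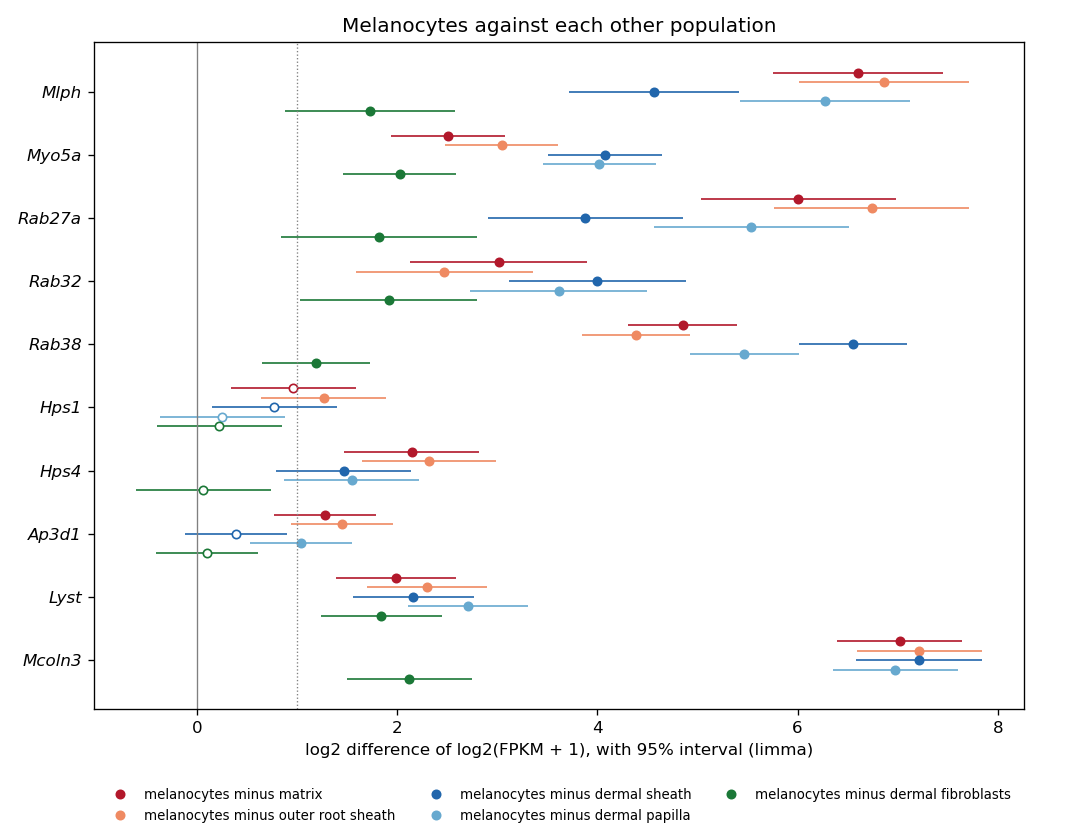
Log2 difference of each of the 10 genes between melanocytes and each other population, with 95% intervals from limma; filled points were called, open points were not, and the dotted line marks the threshold of 1. Mcoln3, Mlph, Rab27a and Rab38 lie at log2 3.88 or more against the 4 non-fibroblast populations, and all fibroblast differences lie at 2.12 or less.

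Counted by comparison, 9 of 10 genes were higher in melanocytes than in matrix (14.5% of tested genes were), 10 of 10 than in outer root sheath (12.9%), 8 of 10 than in dermal sheath (15.0%) and 9 of 10 than in dermal papilla (12.5%). In each comparison 0 of the 10 were lower, while 1968, 1983, 2729 and 2787 of all 13974 tested genes were, in the same order. The median log2 difference of the 10 was 2.76, 2.76, 3.94 and 3.82 in the same order, against -0.03, 0.00, 0.00 and -0.08 over all tested genes. These comparisons share the melanocyte libraries and are not independent of each other. Since several of these genes also serve the secretory granules of blood cells, blood cell markers were read beside them. Of 8 such markers, Ptprc, Csf1r, Emr1, Tyrobp and Cd52 were at 0 in both melanocyte libraries, and the list summed to 9.70 and 21.1 FPKM there. It summed to 7.27 to 11.7 FPKM in matrix, 3.51 to 3.67 FPKM in outer root sheath, 35.3 to 36.4 FPKM in dermal sheath and 13.05 to 17.7 FPKM in dermal papilla. Lyz2, a lysozyme of myeloid cells, made up 16.5 and 5.43 FPKM of the melanocyte sums. Of 6 mast cell markers Cpa3, Mcpt4, Fcer1a and Ms4a2 were at 0 in both melanocyte libraries, and the list summed to 15.4 and 27.8 FPKM there, nearly all from Tpsb2, against 0.563 to 2.94 FPKM in matrix. The part of these cells in the differences was not tested.

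Dermal fibroblast libraries held 7 of the 10 genes at levels well above those of the other mesenchyme. In dermal sheath 7 of 10 were lower than in fibroblasts (Mlph, Myo5a, Rab27a, Rab32, Rab38, Hps4 and Mcoln3), against 6.37% of tested genes. None of the 10 was higher in dermal sheath, against 988 of 13974 tested genes. The same 7 genes were lower in dermal papilla than in fibroblasts, against 6.68% of tested genes; both comparisons share the fibroblast libraries. Rab38 was 41.1-fold lower in dermal sheath (log2 -5.36 ± 0.25, adjusted p = 1.89e-07) and 19.4-fold lower in dermal papilla (log2 -4.28 ± 0.25, adjusted p = 9.95e-07). Mcoln3 was 34.1-fold and 28.9-fold lower in the same comparisons, and Mlph 7.17-fold and 23.4-fold lower. Over the 10 genes the median log2 difference was -2.05 for dermal sheath and -1.85 for dermal papilla, against -0.03 and 0.05 over all tested genes.

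Several of these calls depended on 1 library. Hps4 in dermal sheath (log2 -1.40, adjusted p = 0.00834) was not called without dermal sheath replicate 2 (log2 -1.18, adjusted p = 0.0761) or dermal fibroblasts replicate 1 (log2 -1.08, adjusted p = 0.0995). In dermal papilla Hps4 (log2 -1.48, adjusted p = 0.00570) was not called without dermal fibroblasts replicate 1 (log2 -1.16, adjusted p = 0.0720). Rab27a in dermal sheath (log2 -2.06, adjusted p = 0.00774) lost its call without dermal sheath replicate 1 (log2 -1.72, adjusted p = 0.0776), without dermal fibroblasts replicate 2 (log2 -2.04, adjusted p = 0.0516) and with a pseudocount of 0.1 (adjusted p = 0.0648). Rab32 in dermal papilla (log2 -1.70, adjusted p = 0.0130) lost it without dermal papilla replicate 1 (log2 -1.38, adjusted p = 0.122), dermal fibroblasts replicate 1 (log2 -1.75, adjusted p = 0.0594) or dermal fibroblasts replicate 2 (log2 -1.65, adjusted p = 0.0784). Neither Ap3d1 nor Lyst was called in dermal papilla (log2 -0.94 and -0.87), and both were called lower with quantile normalization (log2 -1.03 and -1.05), as was Ap3d1 without dermal fibroblasts replicate 2 (log2 -1.09).

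Set against melanocytes, the fibroblast libraries held between 22.4% and 43.6% of the melanocyte level of 7 genes. Mcoln3 was at 22.4%, Myo5a at 24.4%, Rab32 at 24.5%, Lyst at 25.7%, Rab27a at 27.6%, Mlph at 30.0% and Rab38 at 43.6%. The 11 melanocyte markers ran between 21.1% (Tyr) and 64.6% (Mlana), with a median of 42.9%. Hps1 at 82.1%, Ap3d1 at 93.7% and Hps4 at 96.9% lay above the range of the marker means. Between single libraries the ranges overlapped. They were 65.1% to 101% for Hps1, 81.1% to 107% for Ap3d1 and 64.5% to 141% for Hps4. Among the markers Sox10 ran from 35.0% to 95.7% and Dct from 41.1% to 81.7%. The part of melanocyte RNA in the fibroblast levels was not tested.

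**Figure D3:**
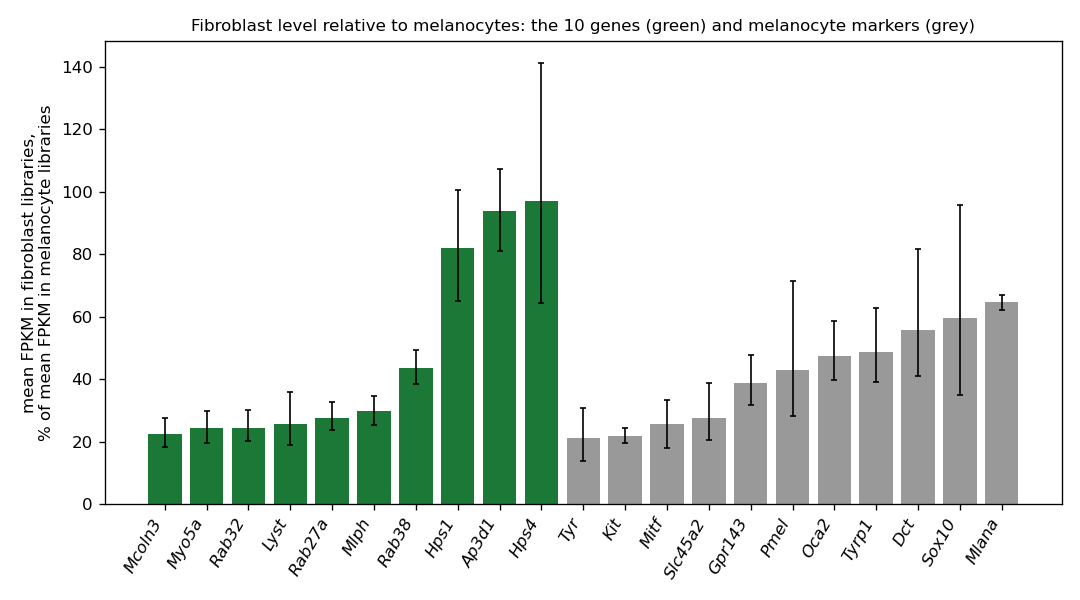
Mean FPKM in the 2 dermal fibroblast libraries as a percentage of the mean in the 2 melanocyte libraries, for the 10 genes (green) and 11 melanocyte markers (grey); whiskers run from the lowest fibroblast over the highest melanocyte library to the highest over the lowest. Hps1, Ap3d1 and Hps4 stand at 82.1% or more, the other 7 genes at 43.6% or less.

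Directly compared, 7 of 10 genes were higher in melanocytes than in fibroblasts (8.06% of tested genes were), with a median log2 difference of 1.78 over the 10 against 0.00 over all tested genes. The differences ran between 2.28-fold for Rab38 (log2 1.19 ± 0.25, adjusted p = 0.00454) and 4.35-fold for Mcoln3 (log2 2.12 ± 0.28, adjusted p = 0.000263). Rab27a (3.53-fold, adjusted p = 0.0110) was not called without dermal fibroblasts replicate 1 (log2 1.80, adjusted p = 0.0642) or melanocytes replicate 1 (log2 1.60, adjusted p = 0.0599). With a pseudocount of 0.1 neither Rab27a (adjusted p = 0.0665) nor Mlph (adjusted p = 0.131) was called. For Hps4 the interval of the log2 difference was -0.61 to 0.74, for Ap3d1 -0.41 to 0.61 and for Hps1 -0.40 to 0.85.

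Between dermal sheath and dermal papilla, Mlph and Rab27a were higher in sheath and Rab38 was lower. Mlph was 3.26-fold higher in dermal sheath (log2 1.71 ± 0.39, adjusted p = 0.00982) and Rab27a 3.15-fold higher (log2 1.66 ± 0.44, adjusted p = 0.0247), whereas Rab38 was 2.12-fold lower (log2 -1.09 ± 0.25, adjusted p = 0.0100). That made 2 of 10 higher and 1 of 10 lower, against 7.41% and 7.18% of tested genes. Myo5a, the motor of the same carrier, did not pass the test (12.3 ± 2.78 FPKM in dermal sheath and 12.8 ± 2.76 FPKM in dermal papilla, SD, n = 2, log2 interval -0.62 to 0.51).

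Each of the 3 calls was lost without at least 1 of the libraries compared. Without dermal sheath replicate 1 Mlph was at log2 1.62 (adjusted p = 0.0690), and without dermal papilla replicate 1 at log2 1.59 (adjusted p = 0.0729). Rab27a was not called without dermal sheath replicate 2 (log2 1.32, adjusted p = 0.161), dermal papilla replicate 1 (log2 1.63, adjusted p = 0.115) or dermal papilla replicate 2 (log2 1.69, adjusted p = 0.103). Rab38 was not called without dermal sheath replicate 2 (log2 -0.87, adjusted p = 0.0833) or dermal papilla replicate 2 (log2 -0.999, adjusted p = 0.0787). Melanocyte markers summed to 35.6 and 44.5 FPKM in dermal sheath, against 103 and 110 FPKM in dermal papilla. In limma 5 of the 11 markers were lower in sheath (7.18% of tested genes were), 0 were higher and 6 were not called. Mitf averaged 5.99 FPKM in sheath and 3.31 FPKM in papilla. The part of melanocyte RNA in these differences was not tested. Blood cell markers summed to 35.3 and 36.4 FPKM in dermal sheath against 13.05 and 17.7 FPKM in dermal papilla, and mast cell markers to 15.4 and 16.3 FPKM against 5.72 and 16.1 FPKM; their part in these differences was not tested.

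Matrix keratinocytes, which receive melanosomes, and outer root sheath cells were compared next, and none of the 10 genes passed the test. In limma 0 were called, 0 had an unadjusted p under 0.05, and 2.51% of tested genes were called higher and 4.59% lower in matrix. Myo5a came closest (38.4 ± 7.89 FPKM in matrix and 25.9 ± 0.363 FPKM in outer root sheath, SD, n = 2, log2 0.54, interval -0.03 to 1.10, adjusted p = 0.298). Rab38 pointed the other way (7.02 ± 1.47 FPKM in matrix and 10.01 ± 0.962 FPKM in outer root sheath, log2 -0.47, interval -1.01 to 0.08). A miss at this spread does not show that the populations hold these genes alike, since the interval of Rab27a reached 1.70.

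The other machinery of the melanosome was read from 12 lists of 66 genes, of which 65 were matched in the table and 58 tested. Between melanocytes and matrix, 20 of the 58 were higher in melanocytes and 5 lower, against 14.5% and 14.1% of all tested genes, and their median log2 difference was 0.60, against 2.76 for the 10 genes. Of the called genes, Myrip passed the filter through melanocyte libraries alone, and Myo7a and Mcoln2 through melanocyte and fibroblast libraries alone. Exph5 and Myo5b passed it through matrix and outer root sheath libraries alone. These calls are therefore not independent of the filter. With a pseudocount of 5 the counts were 13 and 3. Over all tested genes they were 1217 and 1113 at that setting, against 2025 and 1968 in the main fit. Without matrix replicate 1 or melanocytes replicate 2 the lower count fell, as it did over all tested genes. Higher in melanocytes than in outer root sheath were 17 of 58 (12.9% of all tested genes were), than in dermal sheath 18 (15.0%), than in dermal papilla 16 (12.5%) and than in dermal fibroblasts 11 (8.06%), and 3, 2, 1 and 1 were lower. Over all tested genes 1983, 2729, 2787 and 2049 were lower. With a pseudocount of 5 the higher counts became 9, 10, 8 and 7 and the lower counts 0, 1, 0 and 0. At that setting the higher counts over all tested genes were 1086, 1186, 1064 and 583, against 1801, 2098, 1740 and 1126 before. The lower counts over all tested genes became 1093, 1678, 1492 and 1070. Without dermal fibroblasts replicate 1 the higher count against fibroblasts fell, as it did over all tested genes.

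Partner subunits of Ap3d1 were mostly higher in melanocytes than in matrix. Of 5 tested AP-3 partners 4 were called higher (14.5% of all tested genes were), with a median log2 difference of 1.20. Ap3m2, a medium chain first described in neurons, was 10.5-fold higher (33.6 ± 6.37 FPKM in melanocytes and 2.28 ± 0.345 FPKM in matrix, SD, n = 2, adjusted p = 4.15e-06). The beta chain Ap3b1 was 2.11-fold higher and the small chains Ap3s1 and Ap3s2 2.91-fold and 2.30-fold higher, while the general medium chain Ap3m1 was at 16.0 ± 3.60 FPKM in melanocytes and 13.3 ± 4.14 FPKM in matrix and was not called. Against outer root sheath 1 of the 5 was higher (12.9% of all tested genes were) and against dermal sheath 3 (15.0%). Against dermal papilla 4 were higher (12.5%) and against dermal fibroblasts 2 (8.06%). In these comparisons 0 of the 5 were lower, while 1983, 2729, 2787 and 2049 of all 13974 tested genes were, in the order named. Ap3s1 averaged 22.2 FPKM in melanocytes and 34.8 FPKM in dermal sheath.

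BLOC-1 and BLOC-2, which act with AP-3 in cargo delivery, gave 3 of 8 and 2 of 3 members higher than in matrix and 0 lower. Their medians were log2 0.63 and 1.29, while 14.5% and 14.1% of all tested genes were higher and lower. Bloc1s5 was 4.37-fold higher (17.8 ± 0.645 FPKM in melanocytes and 3.35 ± 0.966 FPKM in matrix, adjusted p = 0.000106). Dtnbp1, dysbindin, was 3.87-fold higher, and Snapin 2.33-fold. In BLOC-2, Hps3 was 5.22-fold higher (50.7 ± 3.89 FPKM in melanocytes and 8.90 ± 0.594 FPKM in matrix, adjusted p = 5.46e-05) and Hps5 2.44-fold, while Hps6 was not called. The tethering complex HOPS gave 0 of 6 higher and 0 lower in the same limma fit (median log2 0.64), with 3 of 6 (Vps11, Vps39 and Vps41) at an unadjusted p under 0.05. Against outer root sheath 3 BLOC-1 members were higher (12.9% of all tested genes were) and against dermal sheath 1 (15.0%), with 0 lower. Against dermal papilla 1 was higher (12.5%) and 1 lower, and against dermal fibroblasts 0 were higher (8.06%) and 1 lower. Over all 13974 tested genes 1983, 2729, 2787 and 2049 were lower in these comparisons, in the order named. Snapin averaged 50.8 FPKM in melanocytes and 77.1 FPKM in dermal sheath. BLOC-2 gave 2 of 3 higher and 0 lower in each of these comparisons.

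Of 6 tested motors and tethers 1 was higher and 1 lower, close to the 14.5% and 14.1% of all tested genes, with a median of log2 -0.12. Myo7a, myosin VIIa, which positions melanosomes in the pigment epithelium of the mouse eye, was 54.6-fold higher in melanocytes (60.9 ± 9.55 FPKM in melanocytes and 0.130 ± 0.0880 FPKM in matrix, adjusted p = 1.75e-07). Myo5b, the paralogue of Myo5a, was 5.76-fold lower (0.292 ± 0.260 FPKM in melanocytes and 6.37 ± 0.360 FPKM in matrix, adjusted p = 0.000115). The list of Rab27 effectors and the paralogue Rab27b gave 2 of 6 tested genes higher and 2 lower (median log2 -0.11). Sytl2 was 3.45-fold higher in melanocytes at 107 ± 13.7 FPKM, against 30.9 ± 9.49 FPKM in matrix. Myrip was 2.73-fold higher, but it passed the filter through the melanocyte libraries alone, so its call is not independent of the filter. Exph5 and Sytl1 were 7.58-fold and 5.58-fold lower. Rab27b, the paralogue of Rab27a, averaged 0.0921 FPKM in melanocytes and 0.915 FPKM in matrix, against the 141 to 190 FPKM of Rab27a in melanocytes.

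The remaining lists were small, and against matrix 14.5% of all tested genes were higher in melanocytes and 14.1% lower. Of 4 relatives and regulators of Rab32 and Rab38, 2 were higher in melanocytes than in matrix and 0 lower (median log2 0.62). They were Sgsm2 (2.21-fold) and Rab7l1 (2.02-fold), an older symbol of the paralogue Rab29. Against outer root sheath, dermal papilla and dermal fibroblasts 0 of this list were called. Against dermal sheath 0 were higher and 1 lower (median log2 -0.94), and 3 of the 4 had their highest mean there. Of all 13974 tested genes 15.0% were higher and 2729 lower in melanocytes than in dermal sheath. Sgsm2 averaged 3.26 FPKM in melanocytes and 8.43 FPKM in dermal sheath, and Rab7l1 10.1 FPKM and 19.9 FPKM. Among 4 endolysosomal channels 3 were higher in melanocytes than in matrix and 0 lower (median log2 1.23). These were the two-pore channel Tpcn1, 6.18-fold higher at 40.2 ± 3.91 FPKM, Mcoln1, 2.30-fold higher, and Mcoln2, at 1.41 ± 0.233 FPKM in melanocytes and listed at 0 in both matrix libraries. Against outer root sheath 3 of 4 channels were higher as well (12.9% of all tested genes were). Against dermal sheath 1 was higher (15.0%), with a median log2 of -0.31. Against dermal papilla and dermal fibroblasts 0 were higher in limma (12.5% and 8.06%), with 2 and 1 at an unadjusted p under 0.05. None of the 4 had its highest mean in melanocytes. Tpcn1 averaged 40.2 FPKM in melanocytes and 54.2 FPKM in dermal sheath. In melanocytes against matrix, BEACH domain relatives of Lyst gave 1 of 6 higher (Nbea, 4.33-fold) and 1 lower (Nbeal2, 2.19-fold), with a median of log2 -0.16. Both counts were close to the shares of all tested genes. The SNARE list gave 1 of 3 higher (Stx12, 3.24-fold) and 0 lower (median log2 0.80), and the PIKfyve complex 1 of 3 higher (Pikfyve, 2.34-fold) and 0 lower (median log2 0.73). Against outer root sheath, dermal sheath, dermal papilla and dermal fibroblasts 1, 3, 3 and 2 of 3 SNAREs were higher. For the PIKfyve complex these counts were 2, 2, 3 and 3 of 3, and 0 of either list were lower. Of the BEACH relatives at most 1 was higher in any of these comparisons. For Rab prenylation, 0 of 4 were higher than in matrix and 1 lower (Rabggta, 2.26-fold, median log2 -0.19). Against dermal sheath 1 of 4 was higher, and in the remaining comparisons 0 were called.

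**Figure D4:**
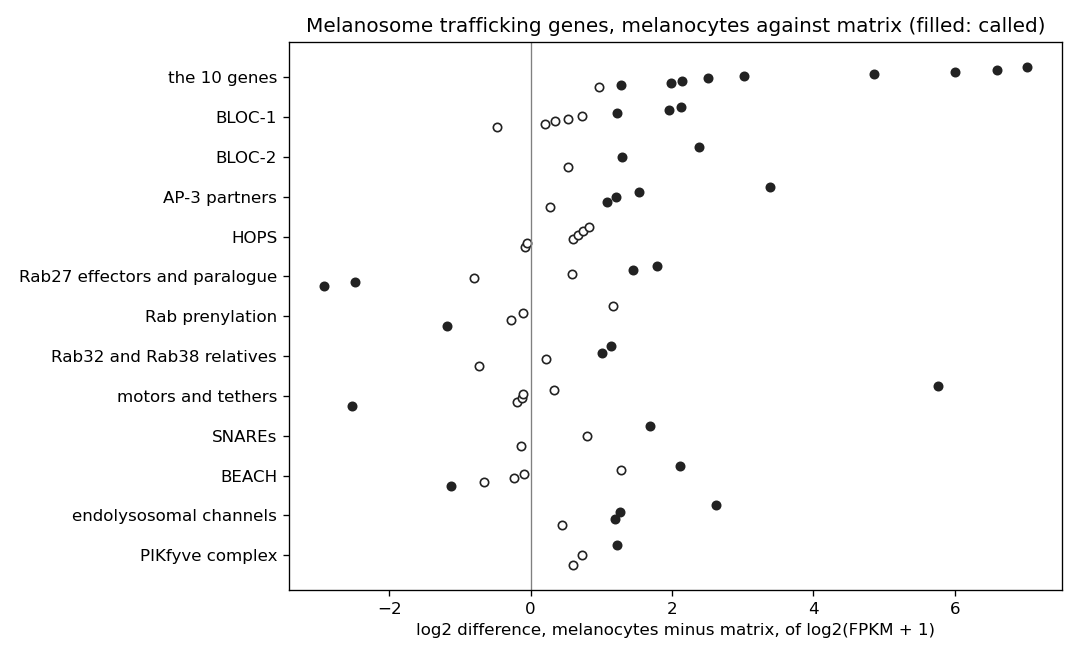
Log2 difference between melanocytes and matrix of the 10 genes (top row) and of the tested genes of 12 lists of melanosome trafficking machinery; filled points were called. The 10 genes lie between 0.96 and 7.02, and of the other lists the motors and tethers reach furthest, with Myo7a at 5.77.

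Across the 12 libraries the 10 genes were described by their likeness, as Pearson's r of log2(FPKM + 1), with libraries of the same population and the melanocyte peak shared by all. Mlph and Rab27a followed each other at r = 0.97, Myo5a and Rab32 at 0.96, and Rab38 and Mcoln3 at 0.96. Hps4 was at 0.94 with both Rab27a and Mlph and at 0.93 with Ap3d1, while Hps1 and Myo5a were least alike at 0.43. Among 11119 other genes (11120 for Hps1) that reached 5 FPKM in at least 2 libraries, those most like Mcoln3 were Irf4 (r = 0.998), a transcription factor of pigment cells, the entry for Mir211, a microRNA of the melanocyte lineage (0.997), and Pax3, another lineage factor (0.995). The Mir211 entry averaged 9773 FPKM in melanocytes, and whether it measures the mature microRNA was not tested. Closest to Mlph were Shc4, Trim63 and Slc24a4 (0.99, 0.99 and 0.98), and to Rab27a Ubl3, Shc4 and Pcolce2 (0.99, 0.98 and 0.98). Myo5a was most like Gas2l3, Fnip2 and Eogt (0.99 each), and Rab32 most like Ugp2, Ogdh and Myo5a itself (0.96 each). Rab38 followed Cdk2 (0.98), whose annotated span overlaps that of the melanosome gene Pmel on the other strand, then Hmga2 and Pgk1 (0.98 each). Hps4 was most like Tfeb (0.99), a transcription factor of lysosomal genes, and then Tbx2 and Mgat4b (0.98 and 0.97). For Hps1 these were Sema4c, Parvb and Snx15 (0.96, 0.95 and 0.95), for Ap3d1 Tex261, Scrn1 and Insc (0.98, 0.97 and 0.97), and for Lyst Hectd3, Adam10 and Fadd (each 0.97).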

How the data were processed

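RNA of sorted cells (integrity number at least 8) was amplified from 6 ng and sequenced from libraries of 100 ng cDNA, per the labels' protocols. The authors deposited 1 table of FPKM with a column per library. Cufflinks 2.1.1, Bowtie2, TopHat2 2.0.3 and the build mm10 are named in the submitters' processing notes; which role each had, the annotation and strand use are not given in the sources used here. Cufflinks and the values themselves point to the unit. Whole reads could not be recovered (at most 1.65% of low ratios between paired libraries shared a value within 0.5%), so depth is unknown.

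From the deposited FPKM, log2(FPKM + 1) of genes that reached 1 FPKM in 2 or more of 12 libraries (13974 tested, 5176 not) was fitted with limma 3.58.1 in R 4.3.3, all 6 populations in 1 fit with an intensity trend and 6 residual degrees of freedom. Two-sided p-values were adjusted by Benjamini-Hochberg over all tested genes of a comparison. The fit was tested on simulated data. Gene positions come from GENCODE M21 (mm10). Genes, lists and tests were chosen with earlier results of these data known. Named genes are all 10 members, up to 4 called genes per list with the largest log2 difference in melanocytes against matrix, partners or paralogues of a member, and the 3 genes most correlated with each member. Symbols in the lists were matched through RefSeq synonyms; Vamp7 is not analysed here.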

Additional observations from a re-analysis of the deposited data

How the results depend on the processing

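Of 90 log2 differences (10 genes in 9 comparisons), 66 kept direction and call under all alternatives that apply to them and 81 kept direction. The alternatives were pseudocounts of 0.1 and 5, no filter, quantile normalization, the replicate number as a block, each library left out, the 6 dermal libraries alone, and a fit without fibroblasts. The number of the 10 genes called stayed within 1.5 times except between dermal sheath and dermal papilla. There the count higher in sheath, 2, was 0 with a pseudocount of 0.1, 1 with a pseudocount of 5, 1 without the filter, and 0 to 2 without 1 library; the count lower, 1, was 0 with a pseudocount of 5, 0 with quantile normalization and 0 to 1 without 1 library. Of the 9 differences that changed sign none was called. With quantile normalization Ap3d1 was at log2 -0.0049 in melanocytes minus fibroblasts and Myo5a at 0.0031 in sheath minus papilla. Without 1 library, melanocytes minus fibroblasts ran from -0.26 to 0.39 for Hps4 and -0.054 to 0.25 for Ap3d1. Matrix minus outer root sheath ran from -0.33 to 0.86 for Mlph, -0.051 to 1.51 for Rab27a, -1.13 to 0.044 for Rab32 and -0.0088 to 0.36 for Hps4. Papilla minus fibroblasts ran from -0.22 to 0.16 for Hps1, and sheath minus papilla from -0.27 to 0.16 for Myo5a and -0.15 to 0.31 for Hps4. The causes were not tested.

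Same-numbered libraries deviated together (r = 0.19 to 0.54 over 15 pairs of populations), but the labels do not say what a number stands for. Pairs among dermal sheath, dermal papilla and dermal fibroblasts were at r = 0.48 to 0.54, and all other pairs at 0.19 to 0.32. With the replicate number as a block the counts of the 10 genes were unchanged, 9 higher in melanocytes than in matrix, 10 than in outer root sheath, 8 than in dermal sheath, 9 than in dermal papilla and 7 than in fibroblasts, and 7 lower in sheath and 7 lower in papilla than in fibroblasts. Without 1 library a population of 1 is assumed to vary like the others. With 2 libraries and unknown depth, levels under 1 FPKM set folds only loosely. Such levels were those of Mcoln3 outside melanocytes and fibroblasts, and of Mlph, Rab27a and Hps1 in outer root sheath. Mlph in matrix replicate 1 and Rab27a in matrix replicate 2 were also under 1 FPKM.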
